A study of Mus musculus with 32 samples.

Results

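Collagen genes were described in 4 organs of mice given a single dose of CBL0137. A gene was counted as a collagen gene when its annotated array symbol was Col, digits, the letter a and digits, such as Col1a1. The rule found 59 probes for 37 genes, out of 16593 named genes on the array, and each gene was represented by its brightest probe over all 32 arrays. Male NIH Swiss mice, 7 weeks old, gave the organs, which were whole lung, liver, spleen and testis. CBL0137, a small DNA-binding molecule of the curaxin class, was given once by vein at 30, 60 or 90 mg/kg, and control mice received the vehicle, 5% dextrose. Organs were taken 24 h after the injection, which gave 16 groups of 2 arrays each. The study was set up to compare organs that differ in FACT, a histone chaperone, but the labels do not name the organs that carry it. Nor do they tell whether 2 arrays of 1 group stand for 2 animals, and each p-value therefore covers array-to-array spread, which may be technical.

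Collagens are the main structural proteins of the extracellular matrix, and each molecule is a triple helix of 3 chains. Fibrillar collagens (types I, II, III, V, XI, XXIV and XXVII) form the fibres of connective tissue, with type I and type III the bulk of it in soft organs. Type IV collagen forms the sheet-like network of basement membranes, where the chains of Col4a1 and Col4a2 are found in nearly all tissues and those of Col4a3, Col4a4 and Col4a5 in selected ones, among them the lung alveolus and kidney glomerulus. FACIT collagens sit on the surface of fibrils, type VI forms beaded filaments around cells, and the transmembrane collagens are anchored in the cell membrane.

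Promoters are shown for the collagen genes whose organ patterns the results turn on, and Col4a1 and Col4a2 come first because they lie head to head and had the same order of organs. The sequences are the 300 bases around annotated starts in RefSeq (GRCm38.p6), read 5′ to 3′ on the gene's strand, and 30 of the 37 collagen genes had an entry. The capitals mark 3 motifs searched on both strands, which are the TATA box as TATAAA, the CAAT box as CCAAT and the core of a GC box as GGGCGG. A motif on the opposite strand is marked by its reverse complement, and no motif here shares letters with another in its window. Col4a1 lies on the minus strand at chr8:11312777-11313076 and Col4a2 on the plus strand at chr8:11312555-11312854, with starts 21 bases apart and windows that overlap by 78 bases.
Col4a1: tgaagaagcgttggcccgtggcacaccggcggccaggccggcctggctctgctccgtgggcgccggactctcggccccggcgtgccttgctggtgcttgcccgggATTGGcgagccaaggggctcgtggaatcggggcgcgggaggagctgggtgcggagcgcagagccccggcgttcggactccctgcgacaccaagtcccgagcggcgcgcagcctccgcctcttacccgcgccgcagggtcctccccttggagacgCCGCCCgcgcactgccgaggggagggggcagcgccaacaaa
Col4a2: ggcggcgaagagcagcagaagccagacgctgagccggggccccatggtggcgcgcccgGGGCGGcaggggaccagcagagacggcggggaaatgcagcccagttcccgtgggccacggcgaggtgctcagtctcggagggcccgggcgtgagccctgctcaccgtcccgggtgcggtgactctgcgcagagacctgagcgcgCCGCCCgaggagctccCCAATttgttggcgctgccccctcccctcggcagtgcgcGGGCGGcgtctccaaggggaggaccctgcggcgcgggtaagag
Col4a4 (chr1:82586800-82587099, minus strand) and Col4a5 (chrX:141475169-141475468, plus strand) are shown as chains that were bright in the lung.
Col4a4: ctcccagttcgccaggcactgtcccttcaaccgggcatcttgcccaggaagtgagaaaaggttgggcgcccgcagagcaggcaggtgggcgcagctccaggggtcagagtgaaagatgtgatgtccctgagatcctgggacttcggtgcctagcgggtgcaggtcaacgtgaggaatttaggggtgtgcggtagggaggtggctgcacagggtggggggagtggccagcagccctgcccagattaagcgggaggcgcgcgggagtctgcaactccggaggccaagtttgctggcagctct
Col4a5: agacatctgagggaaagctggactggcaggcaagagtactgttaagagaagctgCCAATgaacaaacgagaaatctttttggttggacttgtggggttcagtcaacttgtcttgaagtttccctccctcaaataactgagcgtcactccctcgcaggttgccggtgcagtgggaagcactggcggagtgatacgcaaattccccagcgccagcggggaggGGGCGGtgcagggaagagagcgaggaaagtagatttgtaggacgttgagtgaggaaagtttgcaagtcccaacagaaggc
Col18a1 (minus strand), the collagen gene brightest in the liver, has 2 annotated starts, at chr10:77166481-77166780 and chr10:77113656-77113955.
Col18a1, upstream start: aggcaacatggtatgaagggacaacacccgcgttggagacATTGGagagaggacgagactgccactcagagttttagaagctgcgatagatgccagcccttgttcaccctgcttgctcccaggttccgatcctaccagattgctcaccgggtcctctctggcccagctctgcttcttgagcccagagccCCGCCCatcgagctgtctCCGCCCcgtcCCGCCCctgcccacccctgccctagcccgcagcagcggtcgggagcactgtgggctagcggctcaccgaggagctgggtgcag
Col18a1, downstream start: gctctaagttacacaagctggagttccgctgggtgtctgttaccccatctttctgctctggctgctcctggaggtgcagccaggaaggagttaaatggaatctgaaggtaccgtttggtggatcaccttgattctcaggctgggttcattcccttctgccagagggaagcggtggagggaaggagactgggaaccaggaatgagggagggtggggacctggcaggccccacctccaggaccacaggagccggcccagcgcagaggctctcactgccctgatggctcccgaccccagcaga
Col16a1 (chr4:130047590-130047889, plus strand) is shown because it passed the test of the 90 mg/kg effect in spleen against the other organs. Col1a2 passed that test too, and its window is not shown.
Col16a1: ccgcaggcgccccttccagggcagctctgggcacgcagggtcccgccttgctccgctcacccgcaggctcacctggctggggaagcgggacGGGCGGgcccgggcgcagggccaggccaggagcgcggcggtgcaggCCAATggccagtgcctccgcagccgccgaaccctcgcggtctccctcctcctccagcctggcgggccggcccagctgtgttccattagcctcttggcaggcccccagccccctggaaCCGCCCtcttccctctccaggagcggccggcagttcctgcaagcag
None of these windows held TATAAA. The GC box core GGGCGG was found 1 time in the Col4a1 window, 3 times in the Col4a2 window, 1 time in Col4a5, 3 times at the upstream start of Col18a1 and 2 times in Col16a1. The Col4a1 site and the last of the 3 Col4a2 sites are the same bases, in the stretch that the windows share. CCAAT was found 1 time in each of those 5 windows. The downstream Col18a1 window and the Col4a4 window held none of the 3 motifs. Of all 32851 promoters in the table, 13.6% held TATAAA, 37.4% CCAAT and 35.7% GGGCGG. Among 33 promoters of 30 collagen genes, the counts were 5, 12 and 20. A match is a description of letters in the window and says nothing of binding.

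Values are probe intensities in the units the authors deposited, after background subtraction, and a gene was called detected on an array when it lay above 1.645 SD of the noise, a limit of 7.82 to 7.914 units. Between 55.36% and 55.96% of all probes were detected on each array, and replicate arrays correlated at 0.9745 to 0.9912. The organ labels held against organ markers: 5 hepatocyte markers summed to 38664.8 and 38786 on the vehicle liver arrays, and 6 lung epithelium markers to 72214.8 and 75963.3 on the vehicle lung arrays. The 9 germ cell markers summed to 99135.4 and 101198.4 in vehicle testis, where Amh and Hsd3b1, of 8 Sertoli and Leydig cell markers, were not detected. Some arrays also carried transcripts of another organ. The 9 germ cell markers summed to 14538.9 and 26602.5 on the vehicle spleen arrays against 512.9 to 7558.0 on the treated ones, and to 5743.7 and 4401.2 on the vehicle lung arrays against 124.6 to 1408.4 on the treated ones. Hepatocyte markers ranged from 348.0 to 10421.9 over the lung arrays. Values of several collagen genes in spleen are also given with an estimated testis share subtracted. Such values are not given for the enzyme and matrix genes. In whole organs, fewer cells of a type and less RNA per cell cannot be told apart.

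In vehicle organs, 12 collagen genes were detected on both arrays of every organ, namely Col1a1, Col3a1, Col4a1, Col4a2, Col5a1, Col6a1, Col6a2, Col7a1, Col14a1, Col15a1, Col16a1 and Col18a1. The number detected on both arrays was 21 in testis, 20 in lung, 16 in spleen and 16 in liver. Detection on under 4 of the 32 arrays was found for 7 genes, namely Col10a1, Col13a1, Col19a1, Col24a1, Col6a6, Col9a2 and Col9a3. These 7 genes were left out of the tests across organs, which kept 30 collagen genes among 13261 genes. Each organ's vehicle arrays were set against the mean of the other 3 organs' vehicle arrays in limma, and a gene was called at a Benjamini-Hochberg adjusted p under 0.05. Differences are on the log2(intensity + 16) scale, which understates changes of dim genes. The 4 organ comparisons share arrays, so a gene high in 1 organ is pulled down in the others.

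The lung had the most collagen genes called higher: 16 of 30 collagen genes were higher there and 4 lower, where 26.8% of all genes were called higher and 28.5% lower. The median collagen difference in lung was 0.859, against -0.088 over all genes. Among the basement membrane collagens 7 of 9 were higher and 0 lower, among the fibrillar collagens 5 of 10 were higher and 1 lower, and among the beaded filament collagens 2 of 4 were higher and 1 lower. In the liver 5 were higher and 14 lower, with 27.2% and 37.2% of all genes. In the testis 7 were higher and 10 lower, with 28.8% and 39.1% of all genes. In the spleen 3 were higher and 8 lower, with 25% and 26.7%.

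Col4a1, a chain of the ubiquitous type IV network, read 8688 and 10376 on the vehicle lung arrays, 1399.5 and 1980.3 in spleen, 364 and 299 in liver, and 285 and 228 in testis. The lung arrays lay above every other organ, and spleen came next without overlap. Folds between organs are given on the intensity + 16 scale, from means of log2 values, and are smaller than ratios of the intensities for dim genes. On that scale lung was 5.66-fold above spleen, 27.5-fold above liver and 35.1-fold above testis. Its partner chain Col4a2 read 5630.3 and 6118 in lung, 881 and 1033.5 in spleen, 249 and 264 in liver, and 237 and 193 in testis. The order of organs was the same, and liver was 1.18-fold above testis on the intensity + 16 scale. Against the other organs, lung was higher by 4.14 ± 0.19 (SE) for Col4a1 and 3.90 ± 0.18 for Col4a2, with limma adjusted p of 6.39e-14 and 5.27e-14. In the testis the same genes were lower, by a log2 difference of -2.71 ± 0.19 and -2.33 ± 0.18 (limma adjusted p = 1.88e-11 and 7.07e-11).

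Col4a3, a chain of the restricted type IV network that is mutated in Alport syndrome, read 194 and 369 in lung and 45.0 and 48.4 in testis. It was not above the noise on any vehicle array of spleen or liver. On the intensity + 16 scale lung was at least 11.9-fold higher than spleen or liver, taking the lowest detected signal of each array as the bound, and 4.53-fold higher than testis. Col4a4, a partner chain in that network, gave the same order, with 169 and 238 in lung, 59.5 and 47.7 in testis, and values of 6.9 or less in spleen and liver. On the same scale testis was at least 2.62-fold above spleen and liver for Col4a3 and at least 2.90-fold for Col4a4. Col4a5, the X-linked chain of that network, read 271 and 413 in lung, 11.3 and 22.9 in testis, 5.9 and 26.5 in spleen, and 26.1 and 13.9 in liver. For this chain only the lung stood apart, since the other 3 organs overlapped. Col4a6, whose chain pairs with that of Col4a5, was detected on vehicle arrays of lung alone, at 22.1 and 20.3. The lung differences were 3.45 ± 0.24 for Col4a3, 2.82 ± 0.19 for Col4a4, 3.42 ± 0.33 for Col4a5 and 1.00 ± 0.22 for Col4a6 (limma adjusted p from 3.23e-11 to 0.000432).

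**Figure D1:**
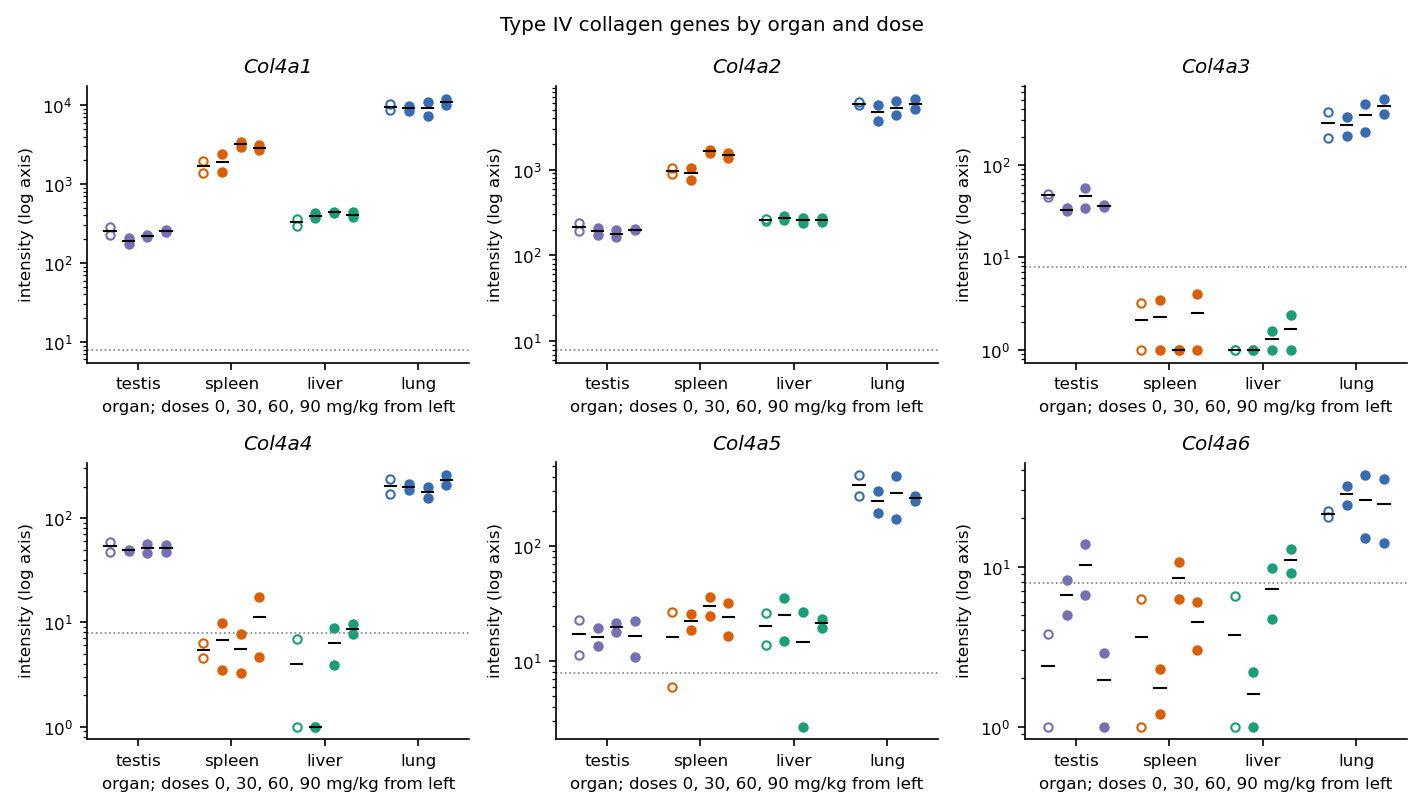
Intensity (log axis, values under 1 drawn at 1) of the 6 type IV collagen genes in testis, spleen, liver and lung, with doses of 0, 30, 60 and 90 mg/kg from left to right in each organ. Points are arrays (open for vehicle), bars are means of 2 arrays and the dotted line is near the limit of detection, and for all 6 genes every lung array lies above every array of the other organs.

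Col18a1, which encodes a basement membrane collagen whose cleaved end is endostatin, had another pattern. It read 4917 and 5213 on the vehicle liver arrays, 833 and 770.5 in lung, 362.5 and 404 in spleen, and 276.5 and 226 in testis. The liver arrays lay far above the rest, and on the intensity + 16 scale liver was 6.22-fold above lung, 12.7-fold above spleen and 19.1-fold above testis. The liver difference was 3.52 ± 0.24 (limma adjusted p = 2.6e-11), the highest of any collagen gene in that organ. A second Col18a1 probe was also highest in liver, at a mean of 465.1, and the remaining probe was detected on 2 of 32 arrays. On the lung array with the lowest hepatocyte marker sum, 348.0, Col18a1 was at 436, and on the array with the highest, 10421.9, it was at 1202.5. The 2 did not run together on every array: the vehicle lung arrays had sums of 1123.8 and 7722.6 with Col18a1 at 833 and 770.5, and an array with a sum of 8899.7 had Col18a1 at 721. The part of liver transcripts in the lung value of Col18a1 was not tested. Col7a1, the collagen of anchoring fibrils, was dim in all organs, with 39.1 and 52.1 in lung, 31.4 and 37.1 in spleen, 20.4 and 9.8 in testis, and 9.9 and 8.4 in liver. Col15a1, the relative of Col18a1, lay between 23.0 and 74.4 on the 8 vehicle arrays and was called in no organ.

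Type I collagen, the main fibre protein, was read from probes of both chains. Col1a1 gave 684 and 655 in lung, 178 and 225 in spleen, 28.4 and 121.5 in testis, and 29.7 and 34.9 in liver. Lung was highest without overlap, while the testis arrays differed by more than the gap from testis to liver. Col1a2 was dim throughout, at 50.1 and 40.9 in lung and at most 14.9 elsewhere. Col3a1, the type III chain that mixes with type I in stretchable tissue, read 300.2 and 283 in lung, 48.7 and 57.0 in spleen, 50.8 and 54.0 in liver, and 8.9 and 13.7 in testis. Spleen and liver did not differ for Col3a1 beyond their spread, and the second probe of this gene did not share the order, being brightest in spleen at a mean of 18.9. The lung differences were 2.87 ± 0.46 for Col1a1, 2.61 ± 0.27 for Col3a1 and 1.37 ± 0.20 for Col1a2 (limma adjusted p = 1.42e-05, 3.93e-08 and 5.47e-06).

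Col5a1, a chain that sets the diameter of type I fibrils, read 633 and 564.5 in lung, 574 and 285 in spleen, 489 and 228 in testis, and 132 and 92.9 in liver. The liver arrays lay below all others, at a log2 difference of -1.82 ± 0.26 (limma adjusted p = 2.4e-06), and lung was called higher by 1.21 ± 0.26 (limma adjusted p = 0.000438). Col2a1, the cartilage collagen, was detected on both vehicle arrays in testis only, at 75.3 and 47.1, with a difference of 1.77 ± 0.30 (limma adjusted p = 1.66e-05). Col27a1, a cartilage-associated fibrillar collagen, read 70.1 and 39.7 in testis and 56.1 and 56.8 in liver, and 17.3 or less in spleen and lung. Among the dimmest fibrillar genes, Col5a2 was detected in vehicle lung alone, at 16.1 and 12.4, and Col11a1 was called higher in liver by 0.56 ± 0.24 (limma adjusted p = 0.0445), with vehicle liver arrays at 6.2 and 26.2. Col5a3 and Col11a2 were called in no organ.

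Type VI collagen followed the lung pattern. Col6a1 read 2742 and 2676.5 in lung, 387 and 469 in spleen, 209.7 and 305 in testis, and 80.0 and 112 in liver, and lung was 24.6-fold above liver on the intensity + 16 scale. Col6a2, its partner chain, read 425 and 447 in lung and between 17.3 and 54.8 on the other 6 vehicle arrays. The lung differences were 3.53 ± 0.24 and 3.21 ± 0.33 (limma adjusted p = 3.81e-11 and 3.09e-08). Both chains were lower in liver, at -2.63 ± 0.24 and -1.21 ± 0.33 (limma adjusted p = 2.49e-09 and 0.00298).

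Col26a1, a collagen described in testis and ovary, read 301 and 136 on the vehicle testis arrays and 10.8 and 16.4 on the vehicle spleen arrays, and it was not detected on the vehicle arrays of liver and lung. On the intensity + 16 scale testis was at least 9.18-fold higher than liver or lung and 7.45-fold higher than spleen. Its testis difference, 3.48 ± 0.23, was the highest among the collagen genes (limma adjusted p = 4.92e-12). On the treated spleen arrays Col26a1 lay between 2.8 and 12.3, and the germ cell markers were lower there as well. Col16a1, a FACIT collagen, read 1492 and 769.6 in testis, 786 and 824 in lung, 262 and 291 in spleen, and 92.7 and 63.2 in liver. Testis and lung overlapped, spleen followed and liver was lowest. Col14a1, a FACIT collagen of fibril surfaces, was instead highest in spleen and liver, at 111 and 127 in spleen, 122 and 88.9 in liver, 46.3 and 32.5 in lung, and 27.7 and 24.3 in testis. Col23a1, a transmembrane collagen, read 228 and 340.5 in lung, 79.8 and 87.3 in testis and 37.6 and 49.0 in spleen, and was not detected in vehicle liver. On the intensity + 16 scale lung was at least 12.3-fold above liver. Col9a1, a FACIT collagen of cartilage, was called higher in liver by 0.66 ± 0.21, where it read 19.3 and 14.5, and Col28a1 lower in liver at -0.63 ± 0.25 (limma adjusted p = 0.00882 and 0.0339). Col17a1, the hemidesmosome collagen, lay between 4.9 and 26.6 on the 8 vehicle arrays, Col25a1 between 0.0 and 18.6, and Col8a2, a network collagen of the cornea, between -7.2 and 12.8, and all 3 were called in no organ. In the spleen the genes called higher were Col14a1 by 1.05 ± 0.24, Col4a1 by 0.80 ± 0.19 and Col4a2 by 0.44 ± 0.18 (limma adjusted p = 0.000755, 0.00118 and 0.0447). With the testis share subtracted they were 1.04, 0.79 and 0.42 (limma adjusted p = 0.0479 for Col4a2 and lower for the other two), and 13 collagen genes were called, 3 higher and 10 lower. Without the first vehicle spleen array the spleen comparison called 6 collagen genes and without the second 7, in place of 11, and without the first vehicle testis array the testis comparison called 9 in place of 17.

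**Figure D2:**
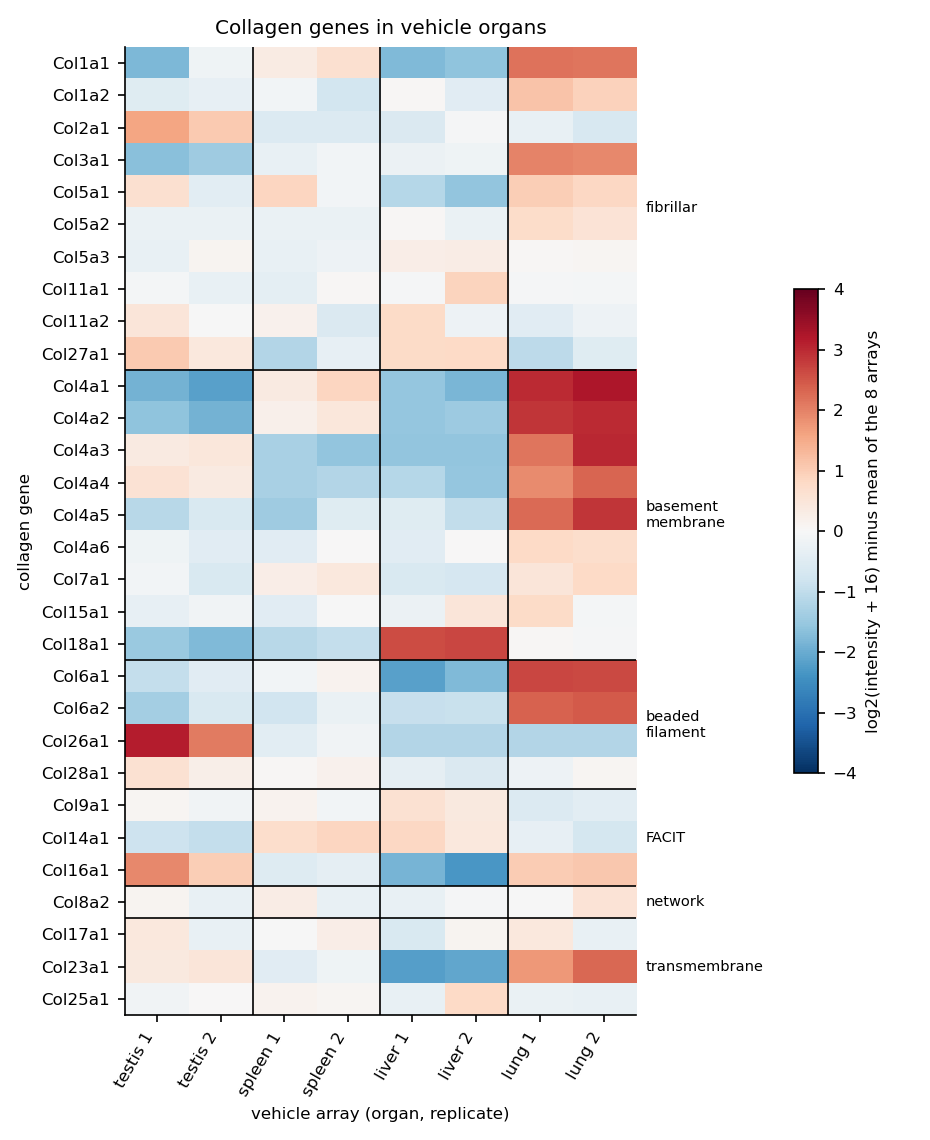
Level of the 30 tested collagen genes on the 8 vehicle arrays, as log2(intensity + 16) minus the gene's mean over those arrays, with rows ordered by the kind of collagen. The type IV and type VI chains are red in lung, Col18a1 in liver, and Col26a1 and Col2a1 in testis. Col16a1 is red in both testis and lung.

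Genes that fold, process, bind or break down collagen were counted in the same lung comparison, where 26.8% of all genes were higher and 28.5% lower. Of the folding and modifying enzymes, 13 of 21 were higher and 4 lower. Serpinh1, the collagen chaperone HSP47, was higher by 3.01 ± 0.26 and Plod2, a lysyl hydroxylase, by 2.54 ± 0.26. Of the processing and cross-linking genes 6 of 7 were higher and 0 lower, with Pcolce2, an enhancer of procollagen cleavage, at 5.69 ± 0.26 and Lox, a lysyl oxidase, at 4.68 ± 0.30. Of the degrading enzymes and their inhibitors 6 of 10 were higher and 1 lower, of the collagen receptors 4 of 7 and 0, of the TGF-beta pathway 14 of 16 and 0, and of the other matrix genes 17 of 26 and 2. In the liver the folding list was split, with 7 of 21 higher and 6 lower, near the shares of all genes there, 27.2% and 37.2%. Sec24d, a coat protein of the vesicles that carry procollagen, was higher there by 2.67 ± 0.17 and P4hb, the shared subunit of prolyl hydroxylase, by 1.90 ± 0.15, while Serpinh1 was lower at -1.94 ± 0.26. These named genes had limma adjusted p under the threshold, at most 9.04e-07.

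Endothelial, fibroblast and smooth muscle markers were mostly higher in lung too, while hepatic stellate cell markers were split between lung and liver. Reln was higher in liver, at 1326.8 and 952.6 against 193.6 and 153.3 in lung. Hgf was also higher in liver, at 18.0 and 21.2 against 6.9 and 12.2. Ecm1 was higher in lung, at 1533.2 and 1537.2 against 1447.9 and 991.0 in liver, and Lrat overlapped between the organs. The sum of 4 stellate markers was 2019.2 and 2910.8 in liver against 1836.9 and 1843.7 in lung. All 8 endothelial markers, 6 of 8 fibroblast markers and 6 of 8 smooth muscle and pericyte markers were called higher in vehicle lung, where 26.8% of all genes were. The endothelial sum was 16134.9 and 17210.5 in lung, 2633.9 and 2916.9 in spleen, 1086.9 and 1101.3 in liver, and 226.8 and 302.8 in testis. The order of the sums was that of Col4a1 and Col4a2, but single markers differed: Vwf and Pecam1 were higher in spleen than in liver, while Tek, Emcn, Cdh5 and Kdr were higher in liver on both arrays. The fibroblast sum was 7134.0 and 8927.8 in lung, 2769.4 and 4800.2 in spleen, 3129.2 and 3643.2 in liver, and 1221.5 and 2158.5 in testis. Among these markers Lum was highest in liver, at 233.8 and 142.2 against 111.4 and 45.4 in lung. Dcn overlapped between the same organs, at 3325.6 and 2937.1 in liver and 4324.5 and 2868.4 in lung. The part of cell makeup in the collagen levels was not tested.

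CBL0137 was then compared with vehicle at each dose within each organ, over all genes tested. No collagen gene was called at any dose in any of the 4 organs by limma. At an unadjusted p under 0.05 the count of collagen genes was 0, 5 and 7 of 25 in spleen at 30, 60 and 90 mg/kg, 3, 8 and 4 of 28 in testis, 0, 0 and 1 of 25 in liver, and 2, 1 and 4 of 26 in lung. Over all genes the share called was 3.13%, 1.9% and 4.27% in spleen, 0.00924% in testis at 90 mg/kg, and 0% at the lower doses in testis and at each dose in liver and lung. The share of all genes at an unadjusted p under 0.05 was 12.7%, 21.3% and 24.8% in spleen, 4.5%, 9.03% and 7.56% in testis, 4.9%, 7.01% and 11.1% in liver, and 5.9%, 8.92% and 11.5% in lung. The collagen share at this unadjusted p was close to that of all genes in spleen at the 2 upper doses, with 5 and 7 of 25. In testis it was above that of all genes at each dose, at 10.7%, 28.6% and 14.3% for 30, 60 and 90 mg/kg. These testis comparisons share the same 2 vehicle arrays. In lung it was 7.69%, 3.85% and 15.4%.

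**Figure D3:**
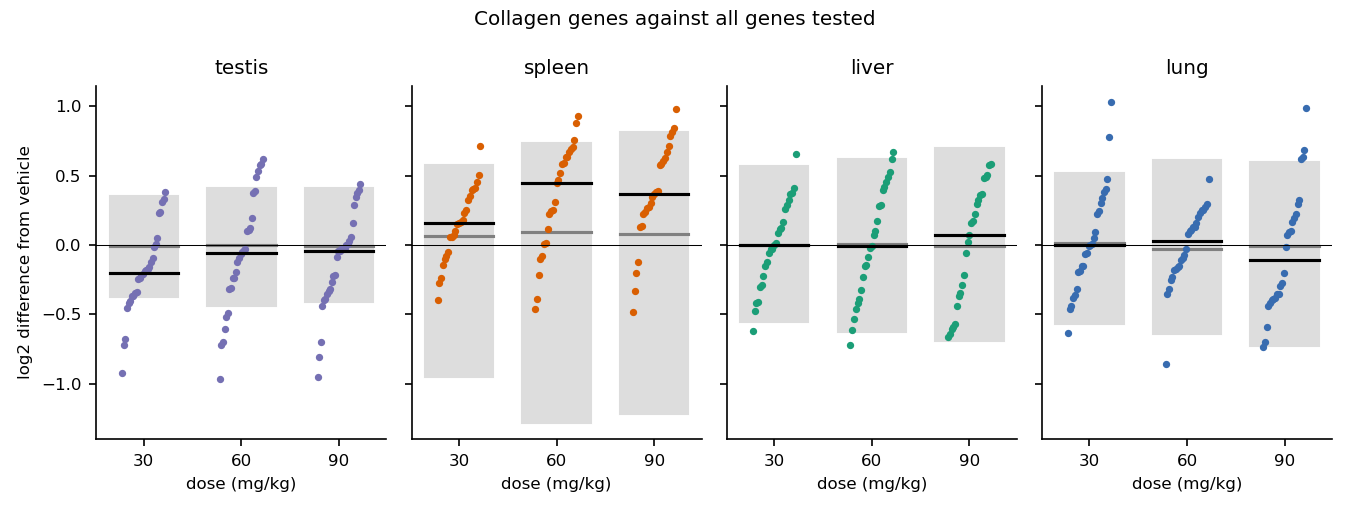
Log2 difference from vehicle of each tested collagen gene (points, sorted within a dose), by organ and dose. Grey boxes span the 5th to 95th percentile of all genes tested, grey lines are the median of all genes and black lines the collagen median, which in spleen is 0.447 at 60 mg/kg and 0.369 at 90 mg/kg against 0.094 and 0.076 for all genes.

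In the spleen most collagen values were higher after the drug without passing the test. At 90 mg/kg 21 of 25 collagen genes had a positive difference, where 57.3% of all genes did, and the collagen median was 0.369 against 0.076 over all genes. At 60 mg/kg it was 20 of 25, where 59.9% of all genes were positive, with a median of 0.447 against 0.094. The 30 mg/kg arrays gave 18 of 25, where 59.8% of all genes were positive, with a median of 0.161 against 0.067. Col4a1 read 1399.5 and 1980.3 with vehicle, 2406 and 1417 at 30 mg/kg, 2969.6 and 3397 at 60 mg/kg, and 2697 and 3087 at 90 mg/kg. The arrays of the 2 upper doses lay above the vehicle and 30 mg/kg arrays, which overlapped. Col4a2 read 881 and 1033.5, then 1042 and 759, then 1562 and 1692, then 1365 and 1558.5, with the same division between doses. The differences at 60 mg/kg were 0.93 ± 0.29 and 0.76 ± 0.21, with limma adjusted p of 0.112 and 0.0851, and in the fit over all 32 arrays they passed, at 0.0122 and 0.0286. With the testis share subtracted they were 0.93 and 0.77 (limma adjusted p = 0.143 and 0.113). Col6a1 differed by 0.87 ± 0.31 (limma adjusted p = 0.16), with 555 and 1136 at 60 mg/kg against 387 and 469.

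Col16a1 had the smallest p of the collagen genes in spleen at 90 mg/kg. It read 262 and 291 with vehicle, 362.5 and 296 at 30 mg/kg, 356 and 537 at 60 mg/kg, and 434 and 571 at 90 mg/kg. Every treated array lay above both vehicle arrays, and the difference at 90 mg/kg was 0.81 ± 0.25 (limma adjusted p = 0.0921), or 1.08 with the testis share subtracted (limma adjusted p = 0.062). In the fit over all 32 arrays Col16a1 and Col4a1 were called at 90 mg/kg (limma adjusted p = 0.0394 and 0.0309). The slope was 0.28 ± 0.07 per 30 mg/kg (limma adjusted p = 0.0533). With the testis share subtracted the slope was 0.36 and passed, at a limma adjusted p of 0.0278. Col1a1 read 178 and 225 with vehicle, 265 and 192 at 30 mg/kg, 287 and 299.8 at 60 mg/kg, and 348 and 289 at 90 mg/kg, and its difference at 90 mg/kg was 0.62 ± 0.22 (limma adjusted p = 0.127). Col4a2 at that dose differed by 0.60 ± 0.21 (limma adjusted p = 0.126). By slope 0 collagen genes were called in spleen and 9 of 25 had an unadjusted p under 0.05, where 5.11% of all genes were called and 24% had such a p.

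**Figure D4:**
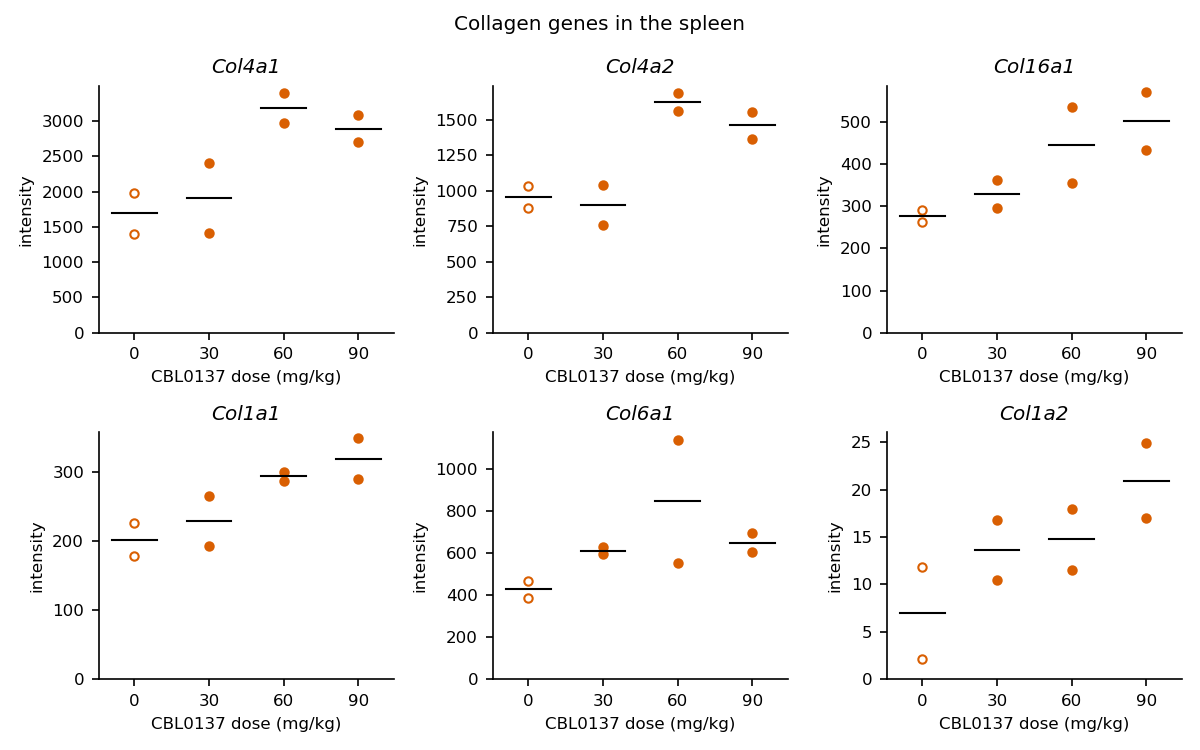
Intensity of 6 collagen genes on the 8 spleen arrays by dose of CBL0137 (open points vehicle, filled points treated, bars means of 2 arrays, axes from 0). Col4a1 and Col4a2 are highest at 60 and 90 mg/kg, and Col16a1 lies above both vehicle arrays on all 6 treated arrays.

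Other cell type markers in the spleen were measured beside these values. The endothelial sum was 2633.9 and 2916.9 with vehicle and 2494.6 and 3543.7 at 60 mg/kg, which overlapped vehicle. At 90 mg/kg it was 2967.8 and 4594.6, above both vehicle arrays. Of 7 tested endothelial markers 0 were called, with a median difference of 0.59. The fibroblast sum was 2769.4 and 4800.2 with vehicle and 4109.2 and 8012.8 at 60 mg/kg, which overlapped vehicle. At 90 mg/kg it was 5924.8 and 5378.6, above both vehicle arrays. Of 8 fibroblast markers 0 were called, with a median of 0.368. In spleen at 90 mg/kg the median was 0.369 for collagen genes and 0.076 for all genes. The smooth muscle and pericyte sum was 4001.5 and 6160.8 with vehicle, 7542.6 and 5693.7 at 60 mg/kg and 5393.1 and 4567.8 at 90 mg/kg, with overlap at both doses. Of the 9 germ cell markers 3 were called lower at 90 mg/kg. The part of these cells in the collagen values was not tested, apart from the testis share: with it subtracted, 0 collagen genes were called in spleen at each dose, as before. With the 30 mg/kg arrays in place of vehicle, a comparison chosen after seeing the data, 0 were called at 60 and at 90 mg/kg.

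Of the genes that act on or with collagen, 6 passed in the spleen at 90 mg/kg, where 4.27% of all genes were called, 232 of 11101 higher and 242 lower. Mmp13, a collagenase, rose by 2.94 ± 0.57 and Timp1, an inhibitor of matrix metalloproteinases, by 1.14 ± 0.23, which were 2 of 10 genes of the degrading list (limma adjusted p = 0.0397 and 0.0441). Tgm2, a cross-linking transglutaminase, rose by 1.28 ± 0.20, as 1 of 7 processing genes (limma adjusted p = 0.0263). Itga11, the alpha chain of a collagen-binding integrin, rose by 0.95 ± 0.21, as 1 of 6 receptors (limma adjusted p = 0.0479). Prelp, a proteoglycan that joins basement membranes to the matrix, rose by 1.58 ± 0.24 and Lamb2, a laminin chain, by 1.31 ± 0.28, as 2 of 24 other matrix genes (limma adjusted p = 0.0263 and 0.0476). None of 20 folding enzymes and none of 16 TGF-beta genes was called there by limma, with 6 and 5 at an unadjusted p under 0.05. P3h2, a prolyl 3-hydroxylase, had the smallest p of the folding list at 0.89 ± 0.22 (limma adjusted p = 0.0605), and Tgfbi, a TGF-beta target, of the pathway list at 0.93 ± 0.21 (limma adjusted p = 0.0519). No gene of these 6 lists was lower in the spleen at that dose by the test.

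In the testis the collagen values with the smallest p at 90 mg/kg were lower ones. Col27a1 read 70.1 and 39.7 with vehicle, 35.0 and 20.8 at 30 mg/kg, 30.0 and 23.7 at 60 mg/kg, and 26.8 and 20.6 at 90 mg/kg. Every treated array lay below both vehicle arrays, and the difference at 90 mg/kg was -0.81 ± 0.24 (limma adjusted p = 0.647). Col26a1 read 301 and 136 with vehicle, 141 and 97.3, then 110.5 and 83.9, then 126 and 75 with rising dose. The treated arrays overlapped the lower vehicle array only at 30 mg/kg, and the difference at 90 mg/kg was -0.95 ± 0.35 (limma adjusted p = 0.647). Col16a1 read 1492 and 769.6 with vehicle and 642 and 671 at 90 mg/kg, a difference of -0.70 ± 0.28 (limma adjusted p = 0.647). For each of these 3 genes the first vehicle array was well above the second.

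In the liver and lung the collagen medians lay close to 0. The liver median at 90 mg/kg was 0.068 against -0.007 for all genes, and the lung median was -0.108 against -0.010. Col18a1, the bright liver collagen, read 4917 and 5213 with vehicle, 7348 and 5822 at 30 mg/kg, 5630.3 and 6736 at 60 mg/kg, and 4926 and 6588 at 90 mg/kg, with overlap at 90 mg/kg. Col4a1 in lung read 8688 and 10376 with vehicle and 10120.6 and 12118 at 90 mg/kg, and Col4a2 5630.3 and 6118 against 5020.5 and 6706, both with overlap. Among the dim genes of the lung, Col25a1, a transmembrane collagen of neurons, differed by 0.98 ± 0.23 at 90 mg/kg (limma adjusted p = 0.151), from 0.5 and 0.0, both below the limit of detection, to 15.7 and 16.6. Col28a1, a beaded filament collagen, differed by 0.69 ± 0.19 (limma adjusted p = 0.21), from 4.5 and 9.1 to 22.0 and 19.0.

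Averaged over the 4 organs, 0 of 30 collagen genes were called by limma at 30, 60 or 90 mg/kg, where 2.55%, 5.03% and 6.3% of all genes were called. At an unadjusted p under 0.05 the counts were 1, 5 and 3, where all genes gave 10.2%, 16.8% and 19.2%. Col5a1 came nearest, with a difference of -0.53 ± 0.16 at 90 mg/kg (limma adjusted p = 0.0507). In lung it read 633 and 564.5 with vehicle, 555 and 648 at 30 mg/kg, 489.8 and 627 at 60 mg/kg, and 387 and 337 at 90 mg/kg. In liver it read 132 and 92.9, then 119.5 and 124, then 74.8 and 78.3, then 72.7 and 62.8. In these 2 organs both arrays at 90 mg/kg lay below both vehicle arrays, with differences of -0.70 ± 0.21 in lung and -0.60 ± 0.22 in liver (limma adjusted p = 0.253 and 0.368). In testis Col5a1 read 489 and 228 with vehicle and 249 and 276 at 90 mg/kg, and in spleen 574 and 285 against 280.3 and 289.6, so the groups overlapped in both. The average passed or missed the threshold with the setting, with a limma adjusted p from 0.0143 to 0.148. Also on average at 90 mg/kg, Tgm2 rose by 0.49 ± 0.09, Prelp by 0.46 ± 0.11 and P3h2 by 0.43 ± 0.11 (limma adjusted p = 0.0028, 0.0106 and 0.0206). Each of these averages includes the spleen, where the difference of the gene at this dose was larger. They do not show a rise in every organ.

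**Figure D5:**
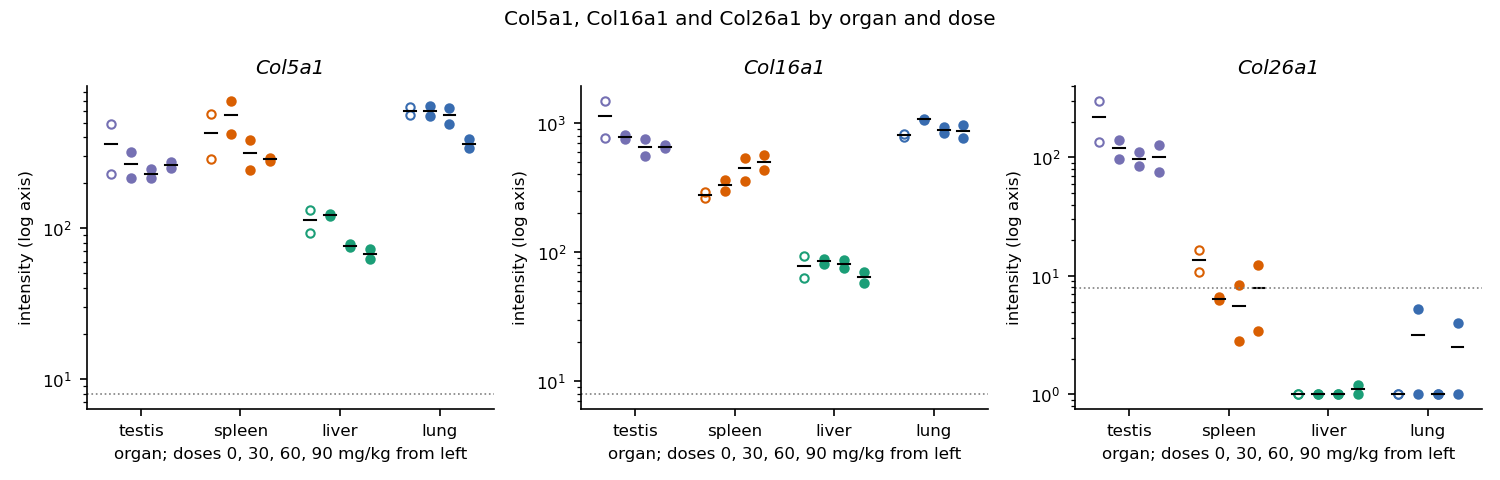
Intensity (log axis, values under 1 drawn at 1) of Col5a1, Col16a1 and Col26a1 in the 4 organs, with doses of 0, 30, 60 and 90 mg/kg from left to right in each organ (open points vehicle, bars means of 2 arrays, dotted line near the limit of detection). Col5a1 is lowest at 90 mg/kg in liver and lung, the Col16a1 mean in spleen is higher at each dose than at the dose below it, and the first vehicle testis array stands above the second for all 3 genes.

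The difference between organs in the response was tested as the 90 mg/kg effect in an organ minus its mean in the other 3. In the spleen 2 of 30 collagen genes were called, both higher, where 5.27% of all genes were called, 2.04% higher and 3.23% lower. Col1a2 differed by 1.16 ± 0.29 (limma adjusted p = 0.0223). It was dim, at 11.8 and 2.1 with vehicle and 17.0 and 24.9 at 90 mg/kg in spleen, while it went from 14.9 and 6.1 to -3.1 and 1.1 in liver, from 5.7 and 7.9 to 0.4 and -1.5 in testis, and from 50.1 and 40.9 to 42.3 and 32.9 in lung. Col16a1 differed by 1.08 ± 0.29 (limma adjusted p = 0.0337), with the spleen values above. In testis it went from 1492 and 769.6 to 642 and 671, in liver from 92.7 and 63.2 to 57.8 and 70.5, and in lung from 786 and 824 to 975 and 767. Its differences at 90 mg/kg were -0.70 ± 0.28 in testis, -0.22 ± 0.23 in liver and 0.10 ± 0.20 in lung, and the testis value holds the high first vehicle array. Both calls were lost without the second vehicle spleen array or the second spleen array at 90 mg/kg. No collagen gene was called in this test by limma for testis, liver or lung, where 0.00754%, 1.69% and 0.0905% of all genes were called. At an unadjusted p under 0.05 these tests gave 4, 2 and 1 collagen genes of 30, where all genes gave 9.88%, 16% and 9.18%.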

How the data were processed

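The values analysed were probe intensities that the authors deposited for 32 arrays, made with GenomeStudio per the submitters' processing notes and with biotinylated RNA on an Illumina BeadChip per the labels' protocols. Their sorted values differed by at most 1.0 between arrays and 22.01% to 22.47% lay below 0, so they were taken as background-subtracted and quantile normalized together. In a second table, not normalized, 3 columns ranked the probes of their samples alike (Spearman rho = 0.999997), and 61 columns were not used, because their repeated names do not settle the sample. Of 25697 probes, 23978 had 1 gene symbol in the platform annotation, 0 had several and 1719 had none, and 23962 were matched to the reference by identifier. No depth exists for arrays, and their number, 2 in a group, limits the precision.

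Intensities were floored at 0, an offset of 16 was added and log2 was taken. The tests used lmFit and eBayes from limma (version 3.58.1, R 4.3.3), on the 8 arrays of an organ for each dose against vehicle and for the slope, and on all 32 arrays for the average dose effect, the vehicle organs and the difference between organs. A gene was tested when detected on at least 2 of 8 or 4 of 32 arrays, with Benjamini-Hochberg adjustment over all genes tested and calls at 0.05. The fits were tested on simulated data. All collagen genes are described, with test values for up to 12 called members by size or, below 3 calls, for the 3 with the smallest p. The members, gene lists and markers were chosen with earlier results of these data known. Col6a3, Col6a4, Col6a5, Col8a1, Col12a1, Col20a1 and Col22a1 were not analysed here. The testis share of an array was the median, over 99 probes, of the ratio of its level to the vehicle testis mean. These probes were bright in vehicle testis (over 2000), with a mean below the limit of detection in liver. The share was 3.2557% and 6.3806% on the vehicle spleen arrays and 0.0205% to 1.3435% on the treated ones. Alternatives were an offset of 50, no detection filter, the mean over a gene's probes, subtraction of the testis share, 1 fit over all arrays, a replicate block, a random block, the vehicle arrays alone and each array left out.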

Additional observations from a re-analysis of the deposited data

Results flagged for a closer look

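In the spleen, 2 collagen genes had a 90 mg/kg effect that differed from the mean effect in the other 3 organs by limma's test of that difference. Col1a2 differed by 1.16 on the log2(intensity + 16) scale (adjusted p = 0.0223) and Col16a1 by 1.08 (adjusted p = 0.0337). Among all genes 5.27% passed this test, so 2 of 30 collagen genes is near the background share. Col1a2 read 24.9 at most on the 8 spleen arrays, while Col16a1 read 262.3 at least. Of 38 alternatives, Col1a2 passed in 36 and Col16a1 in 31. With the testis share subtracted they were 1.18 and 1.34, at adjusted p of 0.025 and 0.0125. Each of the genes has 1 probe here.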

How the results depend on the processing

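The absence of dose calls among collagen genes in testis, liver and lung held under every alternative run. In spleen an offset of 50 gave 1 call among collagen genes at 60 mg/kg, and 2 were called at 60 (Col4a1 and Col4a2) and 2 at 90 mg/kg (Col4a1 and Col16a1) in the fit over all 32 arrays, which shares its spread between organs. The spleen slope gave 2 calls with an offset of 50, 1 with the mean over a gene's probes and 1 with the testis share subtracted. On average over organs at 90 mg/kg, 1 gene, Col5a1, was called with an offset of 50, with the mean over probes and with dose and replicate number as a random block. Leaving out 1 array gave 0 to 1 calls in spleen at 90 mg/kg, for the spleen slope, and for the averages at 60 and at 90 mg/kg, 0 to 3 for the spleen difference between organs, 9 to 18 for vehicle testis, 6 to 11 for vehicle spleen, 15 to 19 for vehicle liver and 18 to 20 for vehicle lung. The spleen difference fell to 0 without the second vehicle spleen array or the second spleen array at 90 mg/kg, and to 1 without the first of testis at 90 mg/kg, of vehicle spleen or of vehicle liver, or the second of lung with vehicle or at 90 mg/kg. The single call at 90 mg/kg and for the slope in spleen came without the first 90 mg/kg array. The only value that turned was Col25a1 in lung at 60 mg/kg, at -0.0222 without the first array of that group and 0.532 without the second. The cause of these moves was not tested. Differences between replicates correlated at -0.262 to 0.438 between doses within organs and at -0.243 to 0.175 between organs at 1 dose. Of 24 pairs between organs, 5 were over 0.1. These correlations cannot settle whether arrays of different organs with 1 replicate number came from 1 animal. With the replicate block 0 collagen genes were called for dose and 2 for the spleen difference, as without it, with 10 in place of 11 for vehicle spleen. Normalizing from the second table with neqc was not run. Dim genes, near the limit of 7.82 to 7.914 units, have no reliable order.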
